A study of Mus musculus with 12 samples.

Results

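The genes described here encode the COP1 ubiquitin ligase, its CUL4 platform and the Tribbles adaptors. They were taken by name from the count table: Cop1, Trib1, Trib2, Det1, Ddb1, Cul4a and Cul4b. All 7 were among the 16283 genes of the table and all 7 passed the filter on low counts, which left 13601 genes for testing. RNA was sequenced from 4T1 cells, which were established from a mammary tumour of a BALB/c mouse and grow as triple-negative tumours. The line carried a guide against Rosa26 (control, a neutral locus) or 1 of 2 guides against Cebpd, sgRNA1 or sgRNA2, both labelled Cebpd knockout. Each of these 3 lines received vehicle or interferon gamma (IFN-gamma, 20 ng/ml for 24 hours), which gives 6 groups of 2 libraries. Whether each line was 1 clone or a pool, and whether the libraries within a group are separate cultures, is not given in the sources used here. The p-values therefore measure the spread between these libraries, which may be technical.

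COP1 is a RING-type ubiquitin ligase that recognises its targets through a WD40 domain. DET1 joins it to DDB1, which hangs on the cullin scaffolds CUL4A or CUL4B, and the cullin brings in the RING protein RBX1 and a charged E2 enzyme. Tribbles pseudokinases have lost most catalytic activity. Of these, TRIB1 and TRIB2 act as adaptors: they hold C/EBP transcription factors and present them to COP1, so that C/EBP proteins are ubiquitinated and degraded. The product of Cebpd, C/EBPδ, is a target of this complex in cancer cells. IFN-gamma binds its receptor on the cell surface and turns on genes of antigen presentation and antiviral defence. Protein levels were not measured here, so the values below are mRNA levels only. In bulk RNA, fewer cells that express a gene and less of its RNA per cell cannot be told apart.

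Library totals lay between 16912710 and 24784371 counts. The epithelial markers Krt8, Krt18, Krt7, Krt19, Epcam, Cdh1 and Cldn4 summed to 3208 to 4429 CPM, the count relative to library size, in every library. Of 5 leukocyte markers, only Ptprc was in the table (at most 0.567 CPM), and of 3 endothelial markers only Pecam1 and Cdh5 (summed, at most 0.483 CPM). Of 4 fibroblast markers, only Col1a1 was in the table, at 0.103 to 3.97 CPM. The share of counts from cytosolic ribosomal protein genes in vehicle was 7.73% and 7.83% for control, 10.3% and 10.4% for sgRNA1, and 11.9% and 12.5% for sgRNA2. After IFN-gamma the same share was 6.89% and 6.92%, 6.87% and 6.46%, and 10.3% and 9.33% in that order. The share was thus higher in both guide lines in vehicle, higher only in sgRNA2 after IFN-gamma, and lower after IFN-gamma than in vehicle in each line. Its part in the results below was not tested.

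The genes lie on different chromosomes of GRCm38, the assembly of the mm10 build named by the submitters. Cop1 (ENSMUSG00000040782.12) is on chromosome 1 from 159232320 to 159347640, plus strand, and Det1 (ENSMUSG00000030610.13) on chromosome 7 from 78821547 to 78847263, minus strand. Trib1 (ENSMUSG00000032501.9) is on chromosome 15 from 59648350 to 59657099, plus strand, and Trib2 (ENSMUSG00000020601.8) on chromosome 12 from 15791727 to 15816922, minus strand. Ddb1 (ENSMUSG00000024740.10) is on chromosome 19 from 10605327 to 10629819, plus strand. Cul4a (ENSMUSG00000031446.14) is on chromosome 8 from 13105621 to 13147940, plus strand, and Cul4b (ENSMUSG00000031095.15) on chromosome X from 38533274 to 38576196, minus strand. All are protein-coding. Of the exon sequence of Ddb1, 5.12% overlaps exons of Tkfc on the opposite strand, and reads there cannot be told apart without strand information. The other 6 genes overlap no exon of another gene in the table.

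The sequence in front of 3 of these genes is shown as an example of genes whose libraries did not overlap between groups. Trib2 and Cul4b were lower after IFN-gamma, and Cop1 was lower in both guide lines. In CPM the libraries of Trib1, Ddb1 and Cul4a separated like those of Cop1. For Cul4a the differences from control were mostly not called, and they changed sign with upper quartile scaling. The share of all tested genes that separate in the same way was not counted. The stretches are from RefSeq promoters on GRCm38.p6, given 5′ to 3′ on the strand of the gene, and end before every annotated start of that gene. They are chr12:15816963-15817035 (minus strand) for Trib2, chr1:159231950-159232155 (plus strand) for Cop1 and chrX:38576197-38576446 (minus strand) for Cul4b. Capitals mark the only match to either of the motifs described here.
Trib2: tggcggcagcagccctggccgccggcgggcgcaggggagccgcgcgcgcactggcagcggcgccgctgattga
Cop1: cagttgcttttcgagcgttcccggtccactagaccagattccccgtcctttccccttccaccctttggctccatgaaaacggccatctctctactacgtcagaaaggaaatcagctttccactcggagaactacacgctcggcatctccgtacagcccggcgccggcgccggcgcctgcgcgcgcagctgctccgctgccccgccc
Cul4b: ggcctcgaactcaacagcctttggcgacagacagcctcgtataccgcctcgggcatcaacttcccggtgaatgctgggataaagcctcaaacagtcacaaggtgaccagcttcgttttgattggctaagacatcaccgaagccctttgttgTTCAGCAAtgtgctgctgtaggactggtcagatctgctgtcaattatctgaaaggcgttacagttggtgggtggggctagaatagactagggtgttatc
The motifs were TTGCNNAA (a core of C/EBP sites) and the interferon-stimulated response element, here GAAA, NN and GAAA in a row. Both strands of the 250 bases before the RefSeq start were searched in the 6 members with an entry, which leaves out Trib1. The response element was in none of the 6 and in 2.98% of 32851 promoters. TTGCNNAA was in 1 of the 6, Cul4b, 99 bases before the start on the reverse strand, and in 9.56% of all. A match or its absence describes these letters only. The 250-base windows of Trib2 and Cop1 held 34 and 30 CG dinucleotides and that of Cul4b 9, against a median of 6 over all promoters.

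Per kilobase of the principal transcript, the 7 mRNAs spanned a wide range. The order, as the mean of the 6 group means in CPM per kb, was Ddb1 (285.2), Cul4a (50.9), Cul4b (23.8), Trib1 (10.6), Cop1 (9.89), Det1 (4.99) and Trib2 (3.84). Ddb1, which many CUL4 ligases share, thus stood far above the subunits particular to COP1. The middle and lower ranks were not fixed. Trib1 was above Cop1 in control vehicle (13.8 against 11.3 CPM per kb) and below it in sgRNA2 vehicle (8.28 against 9.37). Trib2 was at 5.57 CPM per kb in control vehicle, near Det1 at 5.95, and at 1.18 with sgRNA2 after IFN-gamma, where Det1 was at 5.54. Over all annotated exons in place of the principal transcript, Cop1 would fall behind both Tribbles genes (2.89 CPM per kb against 7.35 and 3.71).

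**Figure D1:**
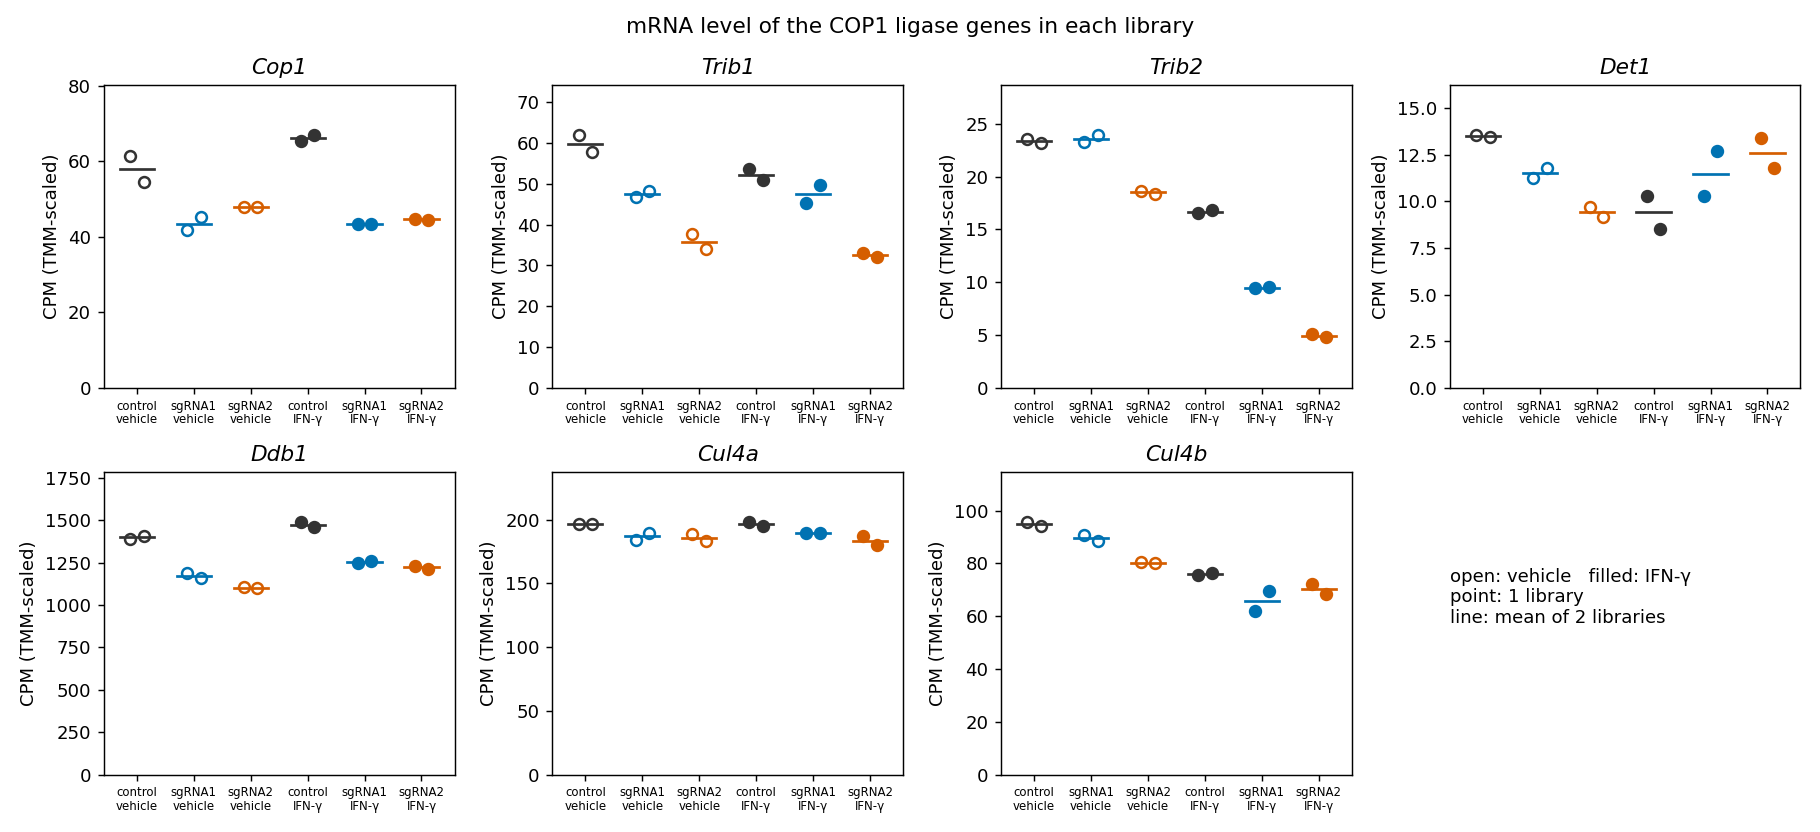
Level of each mRNA in each library, in CPM on TMM-scaled library sizes (vertical axis from 0), for the 6 groups; each point is 1 library, open in vehicle and filled in IFN-gamma, and the line is the mean of 2. Trib2 is lowest in the sgRNA2 libraries after IFN-gamma (4.79 and 5.10 CPM), and Cul4a stays between 179.9 and 198 CPM. On this scaling Cop1, Trib1, Ddb1 and Cul4a are lower in all guide-line libraries than in all control libraries. The differences of Cul4a change sign with upper quartile scaling.

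Trib2, the adaptor that presents C/EBP factors to COP1, had the largest changes of the 7. In vehicle it was at 23.6 and 23.2 CPM in control, 23.3 and 23.9 CPM with sgRNA1, and 18.6 and 18.4 CPM with sgRNA2. After IFN-gamma it was at 16.5 and 16.8 CPM in control, 9.42 and 9.59 CPM with sgRNA1, and 5.10 and 4.79 CPM with sgRNA2. The IFN-gamma libraries of all 3 lines lay below every vehicle library, with no overlap, and the 3 lines lay apart from each other after IFN-gamma. How many of all tested genes separate in these ways was not counted. The raw counts in the sgRNA2 libraries after IFN-gamma were 95 and 122, against 457 and 442 in control vehicle.

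IFN-gamma lowered Trib2 in control by 0.49 ± 0.09 on the log2 scale, that is to 0.713 of its vehicle level (edgeR adjusted p = 0.000129). With sgRNA1 the log2 fold change was -1.31 ± 0.10, to 0.403 of vehicle (adjusted p = 1.9e-09), and with sgRNA2 -1.91 ± 0.11, to 0.267 of vehicle (adjusted p = 5.32e-11). The response differed from that of control by -0.82 ± 0.14 for sgRNA1 (adjusted p = 4.91e-05) and by -1.42 ± 0.14 for sgRNA2 (adjusted p = 8.48e-08). In size, the change with sgRNA2 exceeded that of 95.5% of all tested genes in the same comparison, and the change in control that of 43.8%. Between the guide lines, Trib2 was lower with sgRNA2 by -0.35 ± 0.09 in vehicle and by -0.95 ± 0.11 after IFN-gamma (adjusted p = 0.00313 and 2.49e-06).

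Against control, sgRNA1 did not differ in Trib2 in vehicle beyond the spread (0.01 ± 0.09, adjusted p = 0.923), while sgRNA2 was lower by -0.34 ± 0.09 (adjusted p = 0.00319). The second of these was not called under upper quartile scaling (-0.17, adjusted p = 0.103). After IFN-gamma both lines were lower, by -0.81 ± 0.10 with sgRNA1 (adjusted p = 1.14e-06) and by -1.76 ± 0.11 with sgRNA2 (adjusted p = 1.9e-10). The guide lines share their control libraries, so their differences from control are not independent of each other.

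Trib1, the paralogous adaptor, differed more between lines than between treatments. It was at 61.9 and 57.8 CPM in control vehicle, 46.8 and 48.2 CPM in sgRNA1 vehicle, and 37.7 and 34.0 CPM in sgRNA2 vehicle. After IFN-gamma it was at 53.6 and 50.9 CPM in control, 45.4 and 49.8 CPM with sgRNA1, and 33.1 and 32.2 CPM with sgRNA2. The sgRNA2 libraries were the lowest in both treatments, and those with sgRNA1 lay between them and control.

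In vehicle Trib1 was lower by -0.33 ± 0.07 with sgRNA1 (adjusted p = 0.000318) and by -0.74 ± 0.07 with sgRNA2 (adjusted p = 1.55e-08). With IFN-gamma the difference was -0.68 ± 0.07 with sgRNA2 (adjusted p = 7.58e-08), and with sgRNA1 the difference did not pass (-0.14 ± 0.06, adjusted p = 0.0738). It passed with RLE scaling (-0.16, adjusted p = 0.041) and without replicate 2 of sgRNA1 IFN-gamma (-0.21, adjusted p = 0.0324). Directly compared, sgRNA2 was below sgRNA1 by -0.40 ± 0.07 in vehicle and by -0.55 ± 0.07 after IFN-gamma (adjusted p = 6.18e-05 and 3.33e-06). The response to IFN-gamma was small: -0.19 ± 0.06 in control (adjusted p = 0.0119), 0.00 ± 0.07 with sgRNA1 (adjusted p = 0.971) and -0.14 ± 0.07 with sgRNA2 (adjusted p = 0.0985), where upper quartile scaling gave -0.26 (adjusted p = 0.00375). Without replicate 1 of control vehicle the change in control was -0.14 (adjusted p = 0.131), and without replicate 2 of control IFN-gamma -0.16 (adjusted p = 0.107). The interaction did not pass for sgRNA1 (0.20 ± 0.09, adjusted p = 0.0792; without replicate 1 of sgRNA1 IFN-gamma 0.26, adjusted p = 0.0404) or for sgRNA2 (0.05 ± 0.10, adjusted p = 0.639).

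The ratio of the adaptors within a library does not depend on how libraries are scaled. Trib1 had 2.56 ± 0.0907 counts for each count of Trib2 in control vehicle (SD, n = 2), 2.01 ± 0.0046 in sgRNA1 vehicle and 1.94 ± 0.127 in sgRNA2 vehicle. After IFN-gamma the ratio was 3.14 ± 0.15 in control, 5.01 ± 0.262 with sgRNA1 and 6.60 ± 0.168 with sgRNA2. The guide lines were thus below control in vehicle and above it after IFN-gamma, with no overlap between libraries. How often ratios of other gene pairs separate like this was not counted. The ratio of Trib2 to Cop1 counts went from 0.405 ± 0.0282 to 0.252 ± 0.00101 in control with IFN-gamma, from 0.544 ± 0.0211 to 0.219 ± 0.00335 with sgRNA1, and from 0.386 ± 0.00422 to 0.111 ± 0.00461 with sgRNA2.

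**Figure D2:**
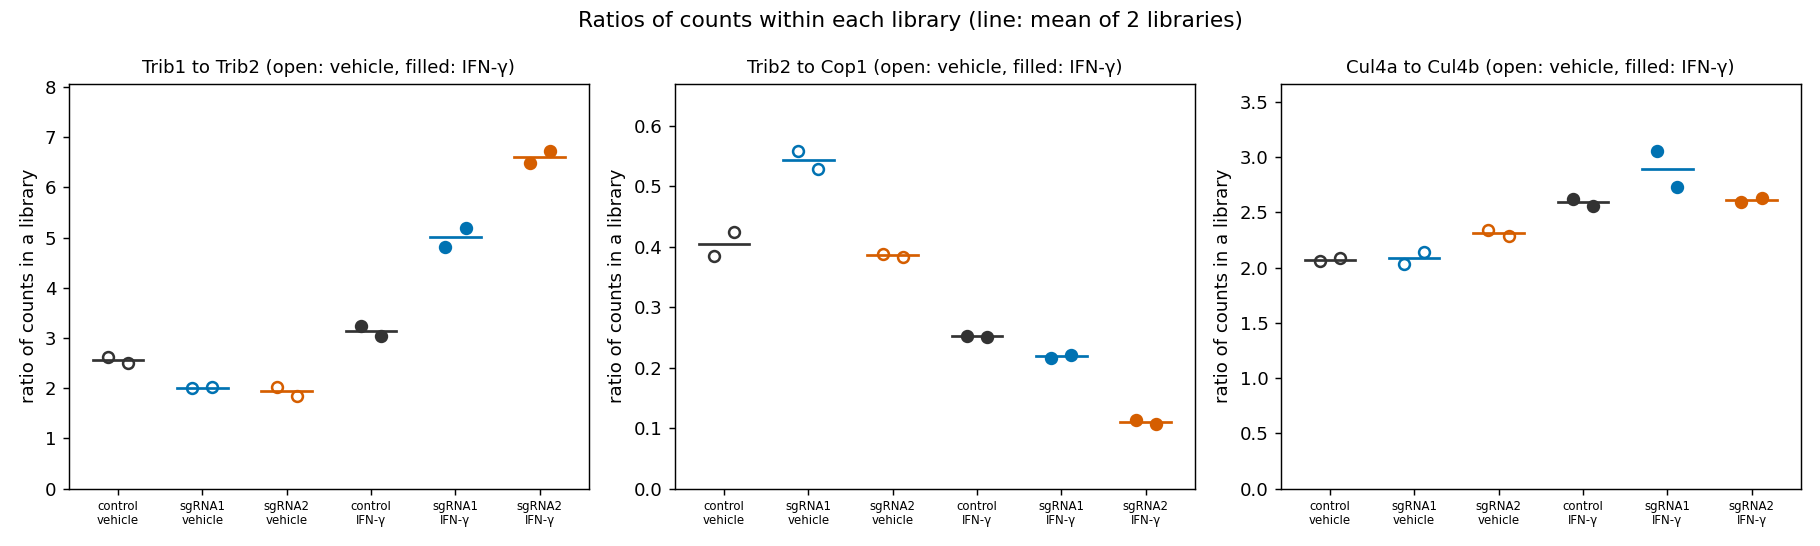
Ratios of deposited counts of gene pairs within each library (vertical axes from 0), by group; each point is 1 library, open in vehicle and filled in IFN-gamma, and the line is the mean of 2. The ratio of Trib1 to Trib2 is highest with sgRNA2 after IFN-gamma (6.60), where the ratio of Trib2 to Cop1 is lowest (0.111), and Cul4a gains on Cul4b after IFN-gamma in each line.

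Cop1, the ligase itself, was lower in both guide lines than in control, in either treatment. Control libraries had 61.4 and 54.6 CPM in vehicle and 65.4 and 66.9 CPM after IFN-gamma. Libraries with sgRNA1 had 41.7 and 45.2 CPM in vehicle and 43.5 and 43.3 CPM after IFN-gamma, and those with sgRNA2 had 47.9 and 48.0 CPM and then 44.8 and 44.6 CPM. All 8 guide-line libraries (41.7 to 48.0 CPM) lay below all 4 control libraries (54.6 to 66.9 CPM). The same order held for Trib1, Ddb1 and Cul4a, but the Cul4a differences changed sign with upper quartile scaling. The share of all tested genes that separate this way was not counted.

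In vehicle Cop1 was lower by -0.42 ± 0.06 with sgRNA1 (adjusted p = 2.11e-05) and by -0.27 ± 0.06 with sgRNA2 (adjusted p = 0.000652). With upper quartile scaling the difference for sgRNA2 was -0.11 and was not called (adjusted p = 0.127). After IFN-gamma Cop1 was lower by -0.61 ± 0.06 with sgRNA1 and by -0.57 ± 0.06 with sgRNA2 (adjusted p = 7.82e-08 and 2.08e-07). The guide lines did not differ from each other at the threshold in vehicle (0.14 ± 0.06, adjusted p = 0.0612) or after IFN-gamma (0.04 ± 0.06, adjusted p = 0.616). The former passed with upper quartile scaling (0.21, adjusted p = 0.0101) and without replicate 2 of sgRNA1 vehicle (0.19, adjusted p = 0.0417).

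IFN-gamma raised Cop1 in control by 0.19 ± 0.06 (adjusted p = 0.00866). The call was lost without replicate 2 of control vehicle (0.11, adjusted p = 0.162), without replicate 2 of control IFN-gamma (0.18, adjusted p = 0.0513), and with upper quartile scaling (0.13, adjusted p = 0.0622). In the guide lines no change passed: 0.00 ± 0.06 with sgRNA1 (adjusted p = 0.998) and -0.10 ± 0.06 with sgRNA2 (adjusted p = 0.175), where upper quartile scaling gave -0.22 (adjusted p = 0.00545). The difference in response from control was -0.29 ± 0.09 for sgRNA2 (adjusted p = 0.00668). It missed the threshold in 4 of the 8 fits that left out 1 library (up to adjusted p = 0.0742, without replicate 1 of sgRNA2 vehicle). The others were those without replicate 2 of sgRNA2 vehicle (-0.22), replicate 1 of sgRNA2 IFN-gamma (-0.21) and replicate 2 of control vehicle (-0.21). For sgRNA1 it was -0.19 ± 0.09 (adjusted p = 0.0756), and it passed with upper quartile scaling (-0.22, adjusted p = 0.0393), without replicate 1 of control vehicle (-0.28, adjusted p = 0.0163) and without replicate 1 of sgRNA1 vehicle (-0.25, adjusted p = 0.0403).

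Det1, which ties COP1 to the CUL4 platform, had the lowest mean CPM of the 7, with 161 to 300 counts per library. It was at 13.5 and 13.5 CPM in control vehicle, 11.3 and 11.8 CPM with sgRNA1, and 9.7 and 9.13 CPM with sgRNA2. With IFN-gamma it was at 10.3 and 8.53 CPM in control, 10.3 and 12.7 CPM with sgRNA1, and 13.4 and 11.8 CPM with sgRNA2. Control was highest in vehicle and lowest, in part overlapping sgRNA1, after IFN-gamma.

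The response of Det1 to IFN-gamma had opposite signs in 2 lines. It fell in control (-0.52 ± 0.13, adjusted p = 0.00228) and rose with sgRNA2 (0.41 ± 0.14, adjusted p = 0.0143), and with sgRNA1 it was at -0.00 ± 0.13 (adjusted p = 0.98). The responses of both guide lines differed from control, by 0.51 ± 0.19 for sgRNA1 (adjusted p = 0.0295) and by 0.93 ± 0.19 for sgRNA2 (adjusted p = 0.000336). The first was not called by DESeq2 (0.50, adjusted p = 0.0763) or in 5 of the 8 fits without 1 library (up to adjusted p = 0.171, without replicate 2 of sgRNA1 IFN-gamma). The other 4 were the fits without each replicate of control vehicle (0.51 and 0.51), replicate 1 of sgRNA1 vehicle (0.48) and replicate 2 of control IFN-gamma (0.38). The rise with sgRNA2 was at adjusted p = 0.0508 without replicate 1 of sgRNA2 IFN-gamma (0.39), and at 0.29 (adjusted p = 0.0717) with upper quartile scaling. Against control Det1 was lower with sgRNA2 in vehicle (-0.52 ± 0.14, adjusted p = 0.00233) and higher after IFN-gamma (0.41 ± 0.13, adjusted p = 0.0131). The second was not called without replicate 2 of control IFN-gamma (0.28, adjusted p = 0.15) or replicate 1 of sgRNA2 IFN-gamma (0.36, adjusted p = 0.0668). With sgRNA1 it was at -0.23 ± 0.13 in vehicle (adjusted p = 0.16) and 0.28 ± 0.14 after IFN-gamma (adjusted p = 0.0762). The latter passed with upper quartile scaling (0.35, adjusted p = 0.0288), without replicate 1 of control IFN-gamma (0.42, adjusted p = 0.0372) and without replicate 1 of sgRNA1 IFN-gamma (0.43, adjusted p = 0.0251).

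Ddb1, the linker between cullin and substrate receptor, was lower in the guide lines. Control libraries had 1391 and 1409.8 CPM in vehicle and 1489 and 1459 CPM after IFN-gamma. Those with sgRNA1 had 1189 and 1159 CPM, then 1249 and 1262 CPM, and those with sgRNA2 had 1108 and 1100.0 CPM, then 1233 and 1211 CPM. No guide-line library reached the lowest control library, a separation not counted over all tested genes.

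The difference of Ddb1 from control was -0.25 ± 0.04 with sgRNA1 and -0.34 ± 0.04 with sgRNA2 in vehicle (adjusted p = 1.02e-05 and 9.1e-08). After IFN-gamma it was -0.23 ± 0.04 and -0.27 ± 0.04 (adjusted p = 1.63e-05 and 2.91e-06). IFN-gamma raised Ddb1 by 0.10 ± 0.04 with sgRNA1 (adjusted p = 0.0256) and by 0.15 ± 0.04 with sgRNA2 (adjusted p = 0.0017). Neither rise was called with upper quartile scaling (0.0031 and 0.03, adjusted p = 0.946 and 0.548). That with sgRNA1 was not called without either replicate 2 of its groups (0.08 and 0.09, adjusted p = 0.164 and 0.09). In control Ddb1 was at 0.07 ± 0.04 (adjusted p = 0.0726), and was called with RLE scaling (0.08, adjusted p = 0.0433) and with DESeq2 (0.08, adjusted p = 0.0142). The interaction for sgRNA2 did not pass, but did without either replicate of sgRNA2 vehicle (0.16 and 0.14, adjusted p = 0.0272 and 0.0427) and without replicate 1 of sgRNA2 IFN-gamma (0.14, adjusted p = 0.0236). Between the guide lines Ddb1 was lower with sgRNA2 in vehicle (-0.09 ± 0.04, adjusted p = 0.0381), and not called without replicate 1 of sgRNA1 vehicle (-0.08, adjusted p = 0.175) or with upper quartile scaling (-0.03, adjusted p = 0.535).

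The CUL4 scaffolds behaved differently from each other. Cul4a had the narrowest range of the 7, a highest library 1.10 times the lowest, against 4.99 times for Trib2. Its guide-line libraries (at most 189.9 CPM) still all lay below its control libraries (at least 194.8 CPM). In 10 of 11 comparisons Cul4a was not called. The exception, sgRNA2 against control after IFN-gamma (-0.10 ± 0.04, adjusted p = 0.0477), changed sign with upper quartile scaling (0.0059, adjusted p = 0.911). It was not called without any 1 of its 4 libraries (-0.11 to -0.07, adjusted p = 0.0891 to 0.236). In vehicle sgRNA2 was at -0.08 ± 0.04 against control (adjusted p = 0.0908), and was called with RLE scaling (-0.10, adjusted p = 0.0466) and without replicate 1 of sgRNA2 vehicle (-0.15, adjusted p = 0.0159). IFN-gamma with sgRNA2 was called with upper quartile scaling (-0.14, adjusted p = 0.00716).

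Cul4b was at 95.6 and 94.2 CPM in control vehicle, 90.7 and 88.6 CPM with sgRNA1, and 80.6 and 80.1 CPM with sgRNA2. After IFN-gamma Cul4b was at 75.4 and 76.3 CPM, 62.1 and 69.5 CPM, and 72.2 and 68.4 CPM in the same order. Every IFN-gamma library lay below every vehicle library, and the share of all tested genes that separate in this way was not counted. The log2 fold changes with IFN-gamma were -0.32 ± 0.05 in control (adjusted p = 3.27e-05), -0.45 ± 0.05 with sgRNA1 (adjusted p = 1.25e-06) and -0.19 ± 0.05 with sgRNA2 (adjusted p = 0.0053). That with sgRNA2 was not called without replicate 1 or 2 of sgRNA2 vehicle (-0.13 and -0.15, adjusted p = 0.118 and 0.0787) or replicate 2 of sgRNA2 IFN-gamma (-0.15, adjusted p = 0.078). The differences in response did not pass (-0.12 ± 0.08 in sgRNA1, adjusted p = 0.187, and 0.13 ± 0.08 in sgRNA2, adjusted p = 0.152). Each passed without 1 library: -0.21 without replicate 2 of sgRNA1 IFN-gamma (adjusted p = 0.032) and 0.21 without replicate 1 of sgRNA2 vehicle (adjusted p = 0.0477). The ratio of Cul4a to Cul4b counts was 2.07 ± 0.0228 in control vehicle and 2.59 ± 0.0503 after IFN-gamma, 2.09 ± 0.0811 and 2.89 ± 0.23 with sgRNA1, and 2.31 ± 0.0405 and 2.61 ± 0.0292 with sgRNA2.

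Against control, Cul4b was lower with sgRNA2 in vehicle (-0.24 ± 0.05, adjusted p = 0.000634), though not with upper quartile scaling (-0.07, adjusted p = 0.219), and with sgRNA1 after IFN-gamma (-0.21 ± 0.06, adjusted p = 0.00327). The latter was at -0.13 (adjusted p = 0.0768) without replicate 1 of sgRNA1 IFN-gamma. In the other arms it was at -0.08 ± 0.05 with sgRNA1 in vehicle (adjusted p = 0.215) and -0.11 ± 0.05 with sgRNA2 after IFN-gamma (adjusted p = 0.0862). Between the guide lines, sgRNA2 was lower in vehicle (-0.16 ± 0.05, adjusted p = 0.0171), which was lost without replicate 1 of sgRNA1 vehicle (-0.15, adjusted p = 0.0843) and with upper quartile scaling (-0.10, adjusted p = 0.13). After IFN-gamma the difference did not pass (0.09 ± 0.06, adjusted p = 0.177), except without replicate 2 of sgRNA1 IFN-gamma (0.18, adjusted p = 0.0302).

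**Figure D3:**
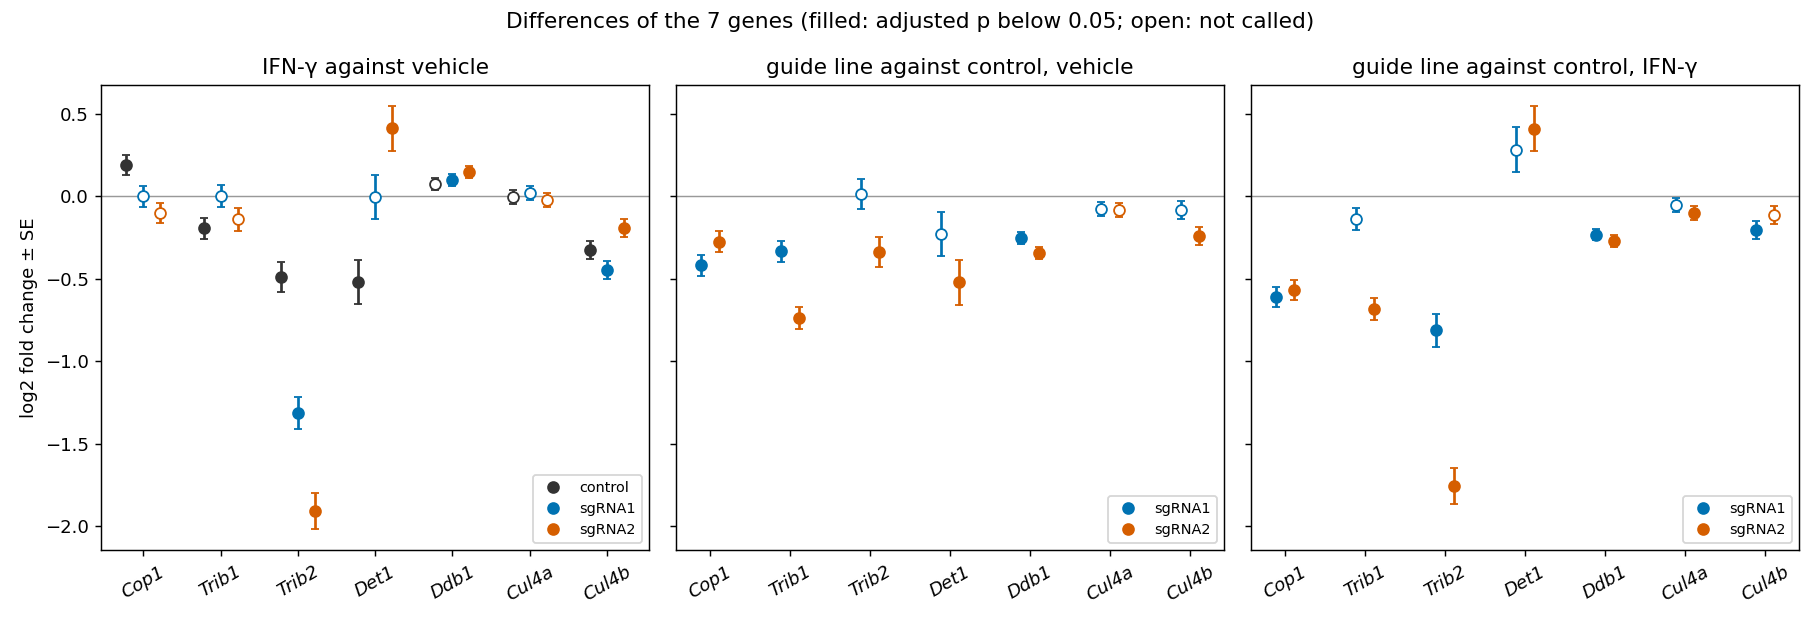
Log2 fold change ± SE of each gene for IFN-gamma against vehicle in each line (left), and for each guide line against control in vehicle (middle) and after IFN-gamma (right); filled points were called at an adjusted p below 0.05. Trib2 reaches -1.91 with sgRNA2, Det1 lies on opposite sides of 0 in control and sgRNA2, and Cul4a stays within 0.10 of 0.

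Many genes of the table were called in each comparison, and the counts of the 7 read against that background. IFN-gamma against vehicle called 5 of 7 in control (Cop1 higher; Trib1, Trib2, Det1 and Cul4b lower), where 70.4% of all tested genes were called. Without replicate 2 of control IFN-gamma it called 3. It called 3 of 7 with sgRNA1 (Ddb1 higher; Trib2 and Cul4b lower) against 61.4% of all, and 4 of 7 with sgRNA2 (Det1 and Ddb1 higher; Trib2 and Cul4b lower) against 59.7%. Against control, sgRNA1 in vehicle gave 3 of 7, all lower, against 52.5% of all. With sgRNA2 in vehicle 6 of 7 were called, all lower, against 73.3%, and 3 with upper quartile scaling. After IFN-gamma, sgRNA1 gave 4 of 7, all lower, against 64.9%. With sgRNA2 after IFN-gamma 6 of 7 were called, 5 lower and Det1 higher, against 61.8%. The shares of all genes count calls in either direction. Against control, 48.8% and 52.3% of those calls were higher with sgRNA1 and sgRNA2 in vehicle, and 48.8% and 48.9% after IFN-gamma. For IFN-gamma against vehicle, 51.6%, 51.7% and 51.1% were higher in control, sgRNA1 and sgRNA2. With only 7 genes against so large a background, neither the count of calls nor their direction is a result about these genes.

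The guide lines differed from each other in 4 of 7 in vehicle (Trib1, Trib2, Ddb1 and Cul4b, lower with sgRNA2; 2 without replicate 1 of sgRNA1 vehicle) against 62.3% of all genes, and in 2 of 7 after IFN-gamma (Trib1 and Trib2) against 47.9%. Of the calls between the guide lines over all genes, 53.3% were higher with sgRNA2 in vehicle and 48.8% after IFN-gamma. The interaction called Trib2 and Det1 for sgRNA1 (55.1% of all genes) and Trib2, Det1 and Cop1 for sgRNA2 (65.1%). DESeq2 called 1 of the 7 for sgRNA1, as Det1 did not pass. Without 1 library the Det1 interaction for sgRNA1 lay between 0.35 and 0.66, and its call was often lost, as given above. The median log2 fold change of the 7 against control was -0.23 with sgRNA1 and -0.34 with sgRNA2 in vehicle, where the median of all genes was 0.03 and 0.06. After IFN-gamma it was -0.21 and -0.27, against 0.00 and 0.03 over all genes. With upper quartile scaling the all-gene median shifted by 0.104 and 0.166 in vehicle and by 0.105 for sgRNA2 after IFN-gamma, and by -0.12 for IFN-gamma with sgRNA2. The share of calls that were higher then went from 48.8% to 62.8% and from 52.3% to 62.5% in vehicle, and from 51.1% to 38.1% for IFN-gamma with sgRNA2.

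The genes whose levels followed Cop1, Trib1 and Trib2 most closely were found by Pearson correlation of log2 CPM over the 12 libraries, among 11938 other genes. As the 12 libraries form 6 groups and share their scaling, these values describe the pattern and carry no test. Closest to Cop1 were Gpnmb, a transmembrane glycoprotein gene (r = 0.969), Ccdc50 (0.967) and Ehmt1, a histone H3 lysine 9 methyltransferase gene (0.967). Gpnmb, like Cop1, was lower in the guide lines: 36.5 ± 2.5 CPM in control vehicle against 10.7 ± 0.071 with sgRNA1 and 11.1 ± 0.67 with sgRNA2. Closest to Trib1 were Dynll2, a dynein light chain gene (0.970), Fzd1, a Wnt receptor gene (0.966), and Fasn, the fatty acid synthase (0.962). Closest to Trib2 were Ccsap (0.971), the mitochondrially encoded mt-Nd2 of respiratory complex I (0.962) and Casd1, a sialic acid O-acetyltransferase gene (0.960). As mt-Nd2 is read from the mitochondrial genome, the share of mitochondrial RNA is given beside it. All mitochondrial rows together took 0.62% to 1.18% of counts in control libraries. With IFN-gamma that share went from 0.814% and 0.839% to 0.544% and 0.54% in sgRNA1, and from 1.12% and 1.14% to 0.628% and 0.533% in sgRNA2. In control, where Trib2 fell too, it went from 0.67% and 0.62% to 1.03% and 1.18%. The level of mt-Nd2 itself did not rise there, at 410 ± 23 CPM in vehicle and 387 ± 31 CPM after IFN-gamma. It went from 441 ± 25 to 200 ± 2.8 CPM with sgRNA1 and from 391 ± 31 to 165 ± 28 CPM with sgRNA2. The part of the mitochondrial share in the likeness was not tested.

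Of 7 further partners of the complex, 2 rose and 5 fell with IFN-gamma in control, 3 rose and 3 fell with sgRNA1, and 4 rose and 2 fell with sgRNA2. Of all tested genes 70.4%, 61.4% and 59.7% were called in these comparisons, with 51.6%, 51.7% and 51.1% of the calls higher. Trib3, the Tribbles member induced by the stress factor ATF4, rose in all lines, by 1.15 ± 0.09 in control, 2.0 ± 0.09 with sgRNA1 and 1.87 ± 0.09 with sgRNA2. Its direction was thus opposite to that of Trib2 in each line. Stk40, a Tribbles-related pseudokinase that also binds COP1, fell in control (-0.67 ± 0.13) and rose with sgRNA1 (0.69 ± 0.13) and sgRNA2 (0.68 ± 0.14), with adjusted p-values no higher than 0.000502. In vehicle it was lower with sgRNA1 (-0.70 ± 0.14) and sgRNA2 (-1.20 ± 0.14). Rbx1, the RING subunit of cullin ligases, named here for that role after its values were seen, fell in all lines (-0.44 ± 0.05, -0.87 ± 0.05 and -0.54 ± 0.05). Among the E2 genes of the UBE2E family, Ube2e3 fell in all lines (-0.37 ± 0.07, -0.93 ± 0.07 and -0.45 ± 0.07), and Ube2e2 was higher in vehicle with sgRNA1 (0.52 ± 0.10) and sgRNA2 (1.15 ± 0.10).

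Of 15 genes whose proteins are targets of COP1, 14 were tested, Cebpa being too low. With IFN-gamma 10 rose and 2 fell in control (median 0.69, where all genes had a median of 0.01), 10 rose and 1 fell with sgRNA1 (median 0.52), and 11 rose and 3 fell with sgRNA2 (median 0.31). The background of called genes was again 70.4%, 61.4% and 59.7%. Cebpd itself rose by 2.66 ± 0.10 in control, from 8.11 ± 1.39 to 51.3 ± 3.07 CPM, by 1.76 ± 0.10 with sgRNA1, from 13.5 ± 0.172 to 45.8 ± 0.211 CPM, and by 1.64 ± 0.11 with sgRNA2, from 9.54 ± 1.46 to 29.8 ± 0.591 CPM. In vehicle the targeted gene was thus higher with sgRNA1 than in control (0.74 ± 0.12, adjusted p = 5.53e-05) and did not pass with sgRNA2 (0.24 ± 0.13, adjusted p = 0.101). After IFN-gamma it was lower with sgRNA2 (-0.78 ± 0.09, adjusted p = 3.03e-07) and did not pass with sgRNA1 (-0.17 ± 0.08, adjusted p = 0.0917). Loss of the Cebpd transcript is therefore not seen in the lines labelled knockout. Counts over a whole gene do not show a small edit, so they do not check that label. Cebpb, which encodes C/EBPβ, rose by 1.28 ± 0.07, 1.44 ± 0.07 and 0.85 ± 0.07. Pnpla2, which encodes the triglyceride lipase ATGL, rose by 1.71 ± 0.07, 0.73 ± 0.08 and 0.76 ± 0.07, and the transcription factor gene Foxo1 by 1.21 ± 0.11, 1.44 ± 0.11 and 0.75 ± 0.10. Against control after IFN-gamma, 3 targets were higher and 8 lower with sgRNA1, and 2 higher and 10 lower with sgRNA2. Over all genes 64.9% and 61.8% were called there, with 48.8% and 48.9% of the calls higher.

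**Figure D4:**
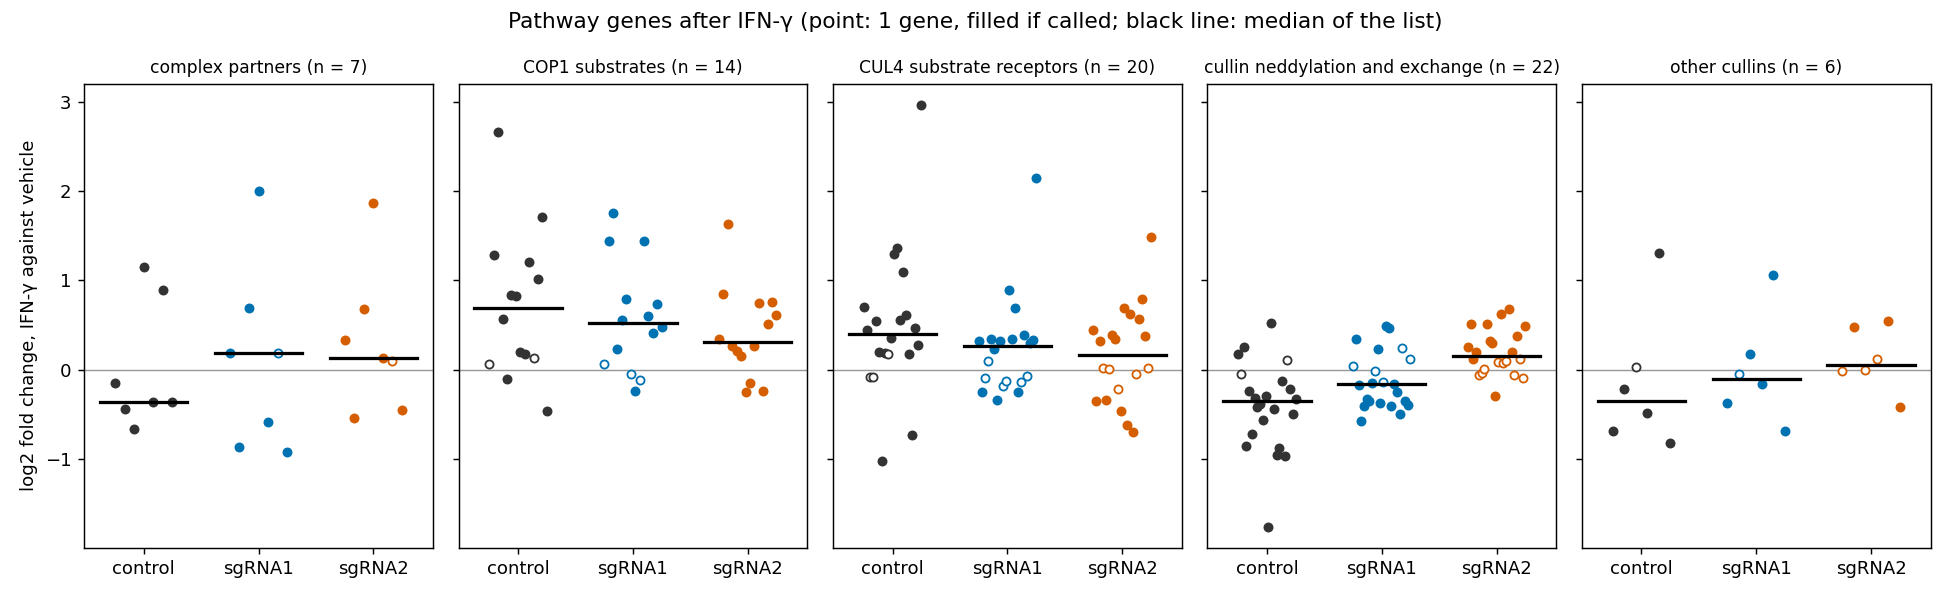
Log2 fold change of IFN-gamma against vehicle in each line for the tested genes of 5 lists around the complex; each point is 1 gene, filled if called, and the black line is the median of the list. The median of the neddylation and exchange genes is at -0.36 in control, -0.16 with sgRNA1 and 0.16 with sgRNA2, and that of the COP1 targets is above 0 in all 3 lines.

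CUL4 also serves other receptors, which bind DDB1 in place of the COP1 unit. Of 20 such receptor genes, 15 rose and 2 fell with IFN-gamma in control (median 0.40), 11 rose and 3 fell with sgRNA1 (median 0.27), and 10 rose and 5 fell with sgRNA2 (median 0.17), where 70.4%, 61.4% and 59.7% of all genes were called. Wdtc1, a receptor linked to fat storage, rose by 2.97 ± 0.08, 2.15 ± 0.08 and 1.49 ± 0.07. Dcaf6 and Dcaf8 rose in control (1.36 ± 0.08 and 1.09 ± 0.05) and fell with sgRNA2 (-0.62 ± 0.07 and -0.70 ± 0.05). With sgRNA1, Dcaf6 rose (0.34 ± 0.09) and Dcaf8 fell (-0.25 ± 0.05). Ddb2, the receptor for ultraviolet damage in DNA, was higher in vehicle with sgRNA1 (0.87 ± 0.09) and sgRNA2 (1.46 ± 0.08).

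Cullins are switched on by attachment of NEDD8, which the COP9 signalosome removes. Of 22 genes of this cycle, 3 rose and 17 fell with IFN-gamma in control (median -0.36), 4 rose and 13 fell with sgRNA1 (median -0.16), and 12 rose and 1 fell with sgRNA2 (median 0.16). The shares of all genes called, 70.4%, 61.4% and 59.7%, stand beside these counts, with 51.6%, 51.7% and 51.1% of those calls higher. Called in either direction were 20 of 22 in control, 17 with sgRNA1 and 13 with sgRNA2, the last no more than its background. Gps1, a signalosome subunit gene, fell in control (-0.88 ± 0.05) and with sgRNA1 (-0.16 ± 0.05) and rose with sgRNA2 (0.68 ± 0.05). Its interaction was 0.72 ± 0.06 for sgRNA1 and 1.56 ± 0.07 for sgRNA2. Cops3 had -0.85 ± 0.05, -0.57 ± 0.05 and 0.20 ± 0.05 in the same order, and Dcun1d2, of the NEDD8 ligase family, fell in control (-1.76 ± 0.13) and was at -0.14 ± 0.12 and 0.08 ± 0.13 in the guide lines, where it was not called. Cand2, a cullin exchange factor gene, was lower in vehicle with sgRNA1 (-0.61 ± 0.10) and sgRNA2 (-1.20 ± 0.10). With sgRNA2 in vehicle 5 of the 22 were higher and 12 lower than in control, against 73.3% of all genes called. After IFN-gamma 15 were higher and 2 lower, against 61.8%. Over all genes 52.3% of the calls were higher in the former and 48.9% in the latter. The rise of the list with IFN-gamma in sgRNA2 stands beside an upper quartile shift of -0.12 over all genes.

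Of 6 other cullin and RING genes, 1 rose and 4 fell with IFN-gamma in control (median -0.35), 2 rose and 3 fell with sgRNA1 (3 called in all without replicate 1 of sgRNA1 vehicle), and 2 rose and 1 fell with sgRNA2. With 6 genes these counts are near the 70.4%, 61.4% and 59.7% called among all genes. Cul7 rose in all lines (1.31 ± 0.06, 1.06 ± 0.06 and 0.55 ± 0.06), and Rnf7, the RING partner of CUL5, fell in all lines (-0.82 ± 0.06, -0.69 ± 0.06 and -0.42 ± 0.06). Cul3 was lower in the guide lines both in vehicle (-0.54 ± 0.05 with sgRNA1 and -0.60 ± 0.05 with sgRNA2) and after IFN-gamma (-0.40 ± 0.05 and -0.64 ± 0.05). Cul1 was lower in vehicle with sgRNA2 (-0.72 ± 0.05) and sgRNA1 (-0.15 ± 0.05).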

How the data were processed

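The table the authors deposited holds raw counts for 12 libraries. Per the submitters' processing notes, STAR 2.4.0, HTSeq, DESeq2 1.10 and build mm10 were used, without a role for each; the annotation, strand setting and filters are not recorded in the sources at hand. The kit was Illumina TruSeq RNA on total RNA, per the labels' protocols. Groups came from sample titles.

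Genes were kept with filterByExpr in edgeR 4.0.16 (minimum count 10, minimum total 15) and scaled by TMM. All 12 libraries were fitted with 1 term per group. Each of 11 comparisons used the quasi-likelihood test of edgeR, with Benjamini-Hochberg adjustment over 13601 genes, and called at an adjusted p below 0.05. SE is the log2 fold change divided by the square root of F, so it restates the test. Values after ± on CPM and ratios are SD (n = 2). The test was run on simulated counts with few changed genes in 1 group, far fewer than were called here. That check does not cover how libraries are scaled when many genes differ. Members and lists were chosen with earlier results of these data known, so counts over lists carry no test. Genes named from each list were up to 4, called and at a mean of at least 1 CPM, with the largest log2 fold change, and for Cop1, Trib1 and Trib2 the 3 most correlated genes. Cebpd and Cebpb were named throughout, and Rbx1 was added later. Lengths and positions came from GENCODE vM21 (GRCm38), promoters from RefSeq; another motif searched is not reported here. Alternatives were RLE and upper quartile scaling, DESeq2 1.42.0, no filter, a replicate block and leaving out each library of the groups compared. The libraries of a group differed by more than sampling noise (chi-square per degree of freedom 2.77 to 7.27).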

Additional observations from a re-analysis of the deposited data

Results flagged for a closer look

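The response to IFN-gamma differed between a guide line and control for 3 of the 7 genes, by edgeR's test of the interaction. For Trib2 the interaction was -0.82 with sgRNA1 (adjusted p = 4.91e-05) and -1.42 with sgRNA2 (adjusted p = 8.48e-08), the guide lines falling further in all 4 of their IFN-gamma libraries. For Det1 it was 0.51 with sgRNA1 (adjusted p = 0.0295) and 0.93 with sgRNA2 (adjusted p = 0.000336). For Cop1 it was -0.29 with sgRNA2 (adjusted p = 0.00668). The Cop1 call was lost in 4 of 8 fits that left out 1 library, and the Det1 call with sgRNA1 in 5 of 8 and with DESeq2 (0.50, adjusted p = 0.0763). The other 3 calls held under every alternative run. The interactions of both lines share the control libraries. Over all genes 55.1% and 65.1% were called for sgRNA1 and sgRNA2.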

How the results depend on the processing

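Over the settings other than leaving out a library, 345 values of single genes kept direction and side of the threshold, 10 lost the call, 10 gained it and 20 changed sign, of which 1 had been called (Cul4a, sgRNA2 against control after IFN-gamma). The largest of those 20 was 0.0992 in size before the change. The cause was not tested. With RLE scaling the changed signs were Cul4a for IFN-gamma in control (0.0058), and Cop1 (-0.00763) and Trib1 (-0.00461) for IFN-gamma in sgRNA1. DESeq2 gave 0.00582, -0.00823 and -0.00465 for the same results. Without a filter, Cul4a was at 0.011 for IFN-gamma in control and 0.00203 in sgRNA2. With upper quartile scaling, IFN-gamma in sgRNA1 gave Cop1 -0.0936, Trib1 -0.0907 and Cul4a -0.0726. Against control, Cul4a was then at 0.0299 (sgRNA1) and 0.0854 (sgRNA2) in vehicle and at 0.0195 and 0.0059 after IFN-gamma, and Cul4b at 0.0221 for sgRNA1 in vehicle. Between the guide lines in vehicle Cul4a was at 0.0555, and interactions were -0.011 for Ddb1 and -0.0104 for Cul4a (sgRNA1) and -0.00653 for Trib1 (sgRNA2).

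Of the 7 genes, upper quartile scaling called 3 in place of 6 for sgRNA2 against control in vehicle, and DESeq2 called 1 in place of 2 for the sgRNA1 interaction. Leaving out 1 library, IFN-gamma called 3 to 5 in control, 2 to 3 in sgRNA1 and 3 in sgRNA2. Against control, sgRNA1 gave 3 in vehicle and 4 to 5 after IFN-gamma, and sgRNA2 gave 6 to 7 and 4 to 5. Between the guide lines 2 to 5 were called in vehicle and 2 to 3 after IFN-gamma, and the interactions called 1 to 3 (sgRNA1) and 2 to 4 (sgRNA2). Signs changed with a library left out for Cul4a under IFN-gamma in control (-0.0106 to 0.0123), sgRNA1 (-0.00185 to 0.044) and sgRNA2 (0.00773 to 0.059), in its interactions (-0.00281 to 0.0437 for sgRNA1 and -0.0264 to 0.0823 for sgRNA2) and between the guide lines in vehicle (-0.0708 to 0.0101). They also changed for IFN-gamma in sgRNA1 for Cop1 (-0.0589 to 0.057), Trib1 (-0.0644 to 0.0700) and Det1 (-0.166 to 0.145), for Trib2 in sgRNA1 vehicle against control (-0.00567 to 0.0322), and for Det1 between the guide lines after IFN-gamma (-0.0226 to 0.288).

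With a replicate block, the same number of the 7 genes was called in each of the 11 comparisons (5 for IFN-gamma in control), and 9539 in place of 9581 of all genes there. Replicate numbers did not pair the libraries: correlations of deviations between groups ranged from -0.0788 to 0.0642 over 15 pairs of groups. Trib2 kept its calls for IFN-gamma in all 3 lines and for both interactions under every alternative run. Depth limits Trib2 and Det1 most, with as few as 95 and 161 counts in a library.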
